A study of Mus musculus with 6 samples.

Results

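Cells pull on their surroundings with actomyosin, bundles of actin filaments along which myosin motors slide. The genes described here encode that machinery: the actins, tropomyosins, calponins and transgelins, myosins and their kinase, filament cross-linkers, proteins that join filaments to adhesion sites, and the transcription factors SRF and myocardin that control many of them. They were 39 genes taken by name, with no measured value used to choose them, out of 54109 gene identifiers in the count tables. Of these, 16 were treated as muscle-type genes, known for high levels in smooth or striated muscle, and 23 as ubiquitous genes found in most cells.

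The RNA came from Msc80, a mouse cell line of Schwann cell origin, Schwann cells being the glia that wrap peripheral nerve fibres. Control cultures (n = 3) were Sox10 wt. Sox10ko cultures (n = 3) had been edited with CRISPR/Cas9 to stop expression of Sox10, the transcription factor of the Schwann cell lineage, and the comparison was made to find its target genes. All 6 cultures were kept in DMEM with 10% FCS and penicillin-streptomycin and were passaged at intervals of 4 days. The labels name the cultures as biological replicates and do not say whether the Sox10ko cultures came from 1 edited clone or from several, so the p-values measure the spread between these cultures only.

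The libraries held 32328618 to 41834431 gene-assigned reads. Values below are reads scaled to a library of 1000000 (CPM) with TMM factors, a scale on which 1 read was worth 0.0235 to 0.0300 CPM. A gene was called changed when its Benjamini-Hochberg adjusted p in edgeR's quasi-likelihood test was under 0.05 over the 15427 genes tested, and log2 fold changes are Sox10ko minus control with their standard error. Sox10 itself was at 606, 627 and 617 CPM in control and at 82.3, 67.5 and 116 CPM in Sox10ko, so its transcript was lower but not absent; the labels do not give the edited site. Of 9 Schwann cell markers including Sox10, 7 of the 8 tested were lower, among them Erbb3, Cdh19 and Foxd3, and none was higher. Over all tested genes 14.7% were called lower. The summed level of the 9 markers was 4300 to 4825 CPM in control and 110 to 160 CPM in Sox10ko. Replicates of a group differed by far more than counting noise, with a chi-square per degree of freedom of 27.1 to 58.6 among control pairs and 78.9 to 92.1 among Sox10ko pairs. In bulk RNA of this kind, a change in the number of cells that express a gene and a change in RNA per cell cannot be told apart.

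Each actin filament is a polymer of actin subunits, and the muscle-type and cytoplasmic actins are nearly identical proteins made from separate genes. Tropomyosin lies along the filament and, with caldesmon and calponin, sets how myosin can reach it. In smooth muscle, calcium activates myosin light chain kinase (Mylk), which phosphorylates the regulatory light chain and lets myosin pull. Many of these genes share a control element, the CArG box, to which SRF binds, and SRF is driven by myocardin in muscle and by the related MRTF proteins in other cells, where monomeric actin holds the MRTFs out of the nucleus.

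Most of the contractile genes that changed were higher without Sox10. Of the 39 genes, 35 had enough reads to be tested, 17 were higher in Sox10ko and 1, the non-muscle myosin heavy chain gene Myh14, was lower. Over all tested genes 17.3% were called higher and 14.7% lower, 32.0% in either direction, and the median log2 fold change was 0.02 against 0.74 for the 35. Among the muscle-type genes 9 of the 12 tested were higher, none lower, and the median log2 fold change was 2.95. However, 7 of those 12 (Acta1, Acta2, Actg2, Cnn1, Tpm2, Myh11 and Tagln) exceeded the low-count limit of 0.249 CPM in all 3 Sox10ko libraries but in at most 1 control library, and so were tested only through the group in which they were high. Neither their number nor the medians that include them carry weight of their own. Of the 5 muscle-type genes measurable in both groups, Mylk, Flnc and Lmod1 were higher and Smtn and Csrp1 were not called, and their median log2 fold change was 2.40. All 23 ubiquitous genes were measurable in both groups: 8 were higher, 1 was lower and 14 were not called, with a median log2 fold change of 0.41.

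**Figure D1:**
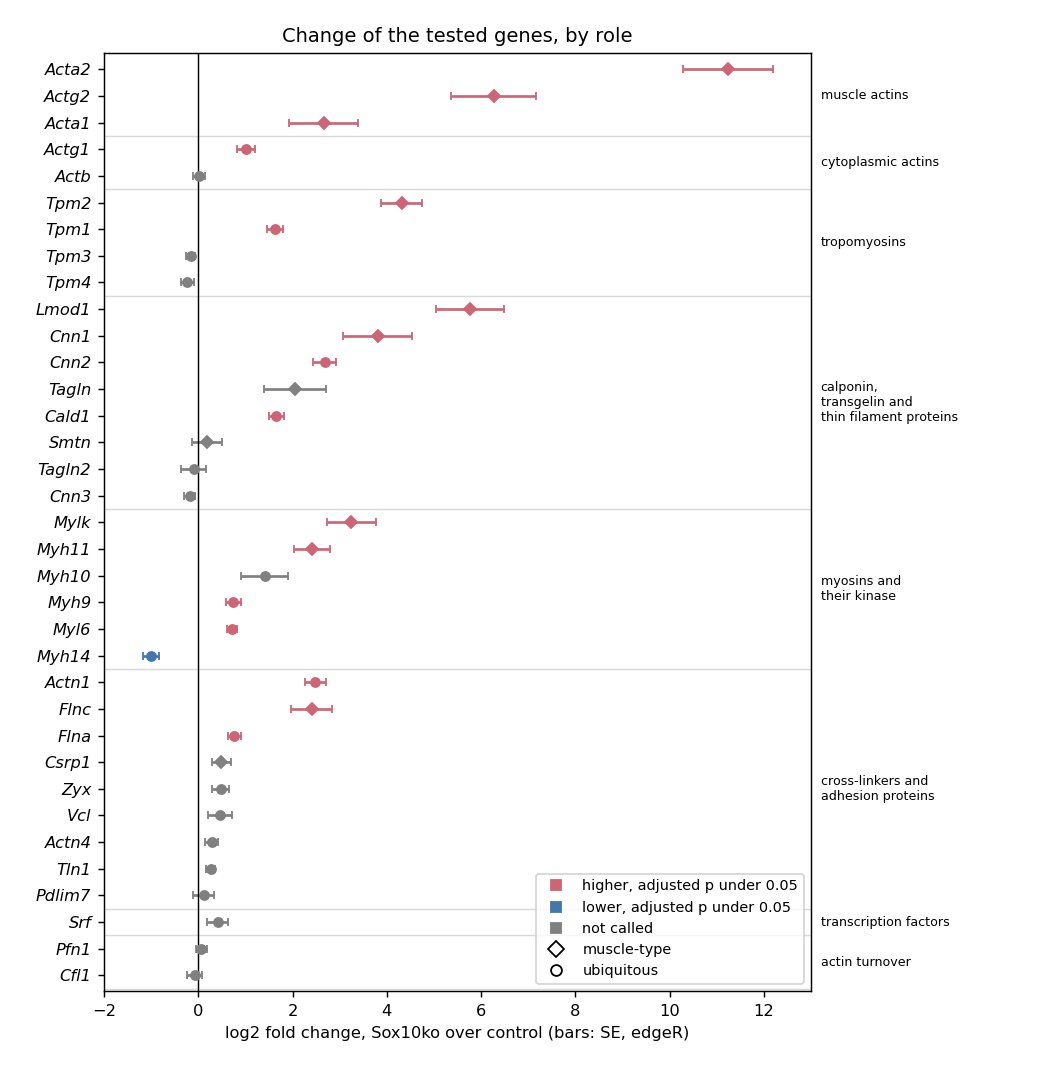
Log2 fold change (Sox10ko over control, horizontal axis) of the 35 tested contractile genes, grouped by role, with bars of 1 SE, colour for the edgeR call and diamonds for muscle-type genes. The muscle actins Acta2 at 11.23 and Actg2 at 6.26 lie farthest right, and Myh14 at -1.01 is the only called gene left of 0.

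The promoters show the SRF element in genes that were called and in genes that were not. The stretches below are the 250 bases before the RefSeq start site (GRCm38.p6), read 5′ to 3′ on the gene's strand, with CArG boxes, or CArG-like sites in Acta2, in capitals. Acta2 (chr19:34255374-34255623, minus strand) is shown for its change, Actg1 (chr11:120348496-120348745, minus strand) and Cnn2 (chr10:79988350-79988599, plus strand) as ubiquitous genes called higher, and Vcl (chr14:20929148-20929397, plus strand) and Srf (chr17:46556163-46556412, minus strand) as genes with a box that were not called.
Acta2: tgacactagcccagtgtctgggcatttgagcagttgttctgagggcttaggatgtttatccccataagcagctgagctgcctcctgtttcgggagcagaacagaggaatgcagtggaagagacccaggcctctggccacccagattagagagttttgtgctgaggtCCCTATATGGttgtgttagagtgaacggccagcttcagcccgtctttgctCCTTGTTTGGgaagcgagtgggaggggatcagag
Actg1: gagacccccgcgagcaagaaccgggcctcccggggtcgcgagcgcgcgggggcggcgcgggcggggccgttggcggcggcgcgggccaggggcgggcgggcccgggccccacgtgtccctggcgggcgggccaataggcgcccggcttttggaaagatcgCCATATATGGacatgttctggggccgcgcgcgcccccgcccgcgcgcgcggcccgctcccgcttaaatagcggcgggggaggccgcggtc
Cnn2: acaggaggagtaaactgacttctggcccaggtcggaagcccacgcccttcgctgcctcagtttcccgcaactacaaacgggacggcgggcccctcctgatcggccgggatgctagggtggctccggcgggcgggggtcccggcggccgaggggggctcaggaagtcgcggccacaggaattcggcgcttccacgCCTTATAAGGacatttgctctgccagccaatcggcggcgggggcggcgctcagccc
Vcl: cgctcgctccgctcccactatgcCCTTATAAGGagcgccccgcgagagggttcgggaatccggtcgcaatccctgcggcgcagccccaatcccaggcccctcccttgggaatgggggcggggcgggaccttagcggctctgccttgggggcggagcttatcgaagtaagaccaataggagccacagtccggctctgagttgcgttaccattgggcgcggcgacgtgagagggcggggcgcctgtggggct
Srf: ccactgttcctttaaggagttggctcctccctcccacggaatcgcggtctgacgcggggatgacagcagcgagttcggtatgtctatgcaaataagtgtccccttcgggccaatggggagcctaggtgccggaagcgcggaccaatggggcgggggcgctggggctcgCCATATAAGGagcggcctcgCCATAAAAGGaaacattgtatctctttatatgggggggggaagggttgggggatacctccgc

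The CArG box was searched on both strands as CC, 6 bases of A or T, then GG, and a CArG-like site was allowed 1 G or C among the inner 6 bases. RefSeq windows of 300 bases (250 before the start site and 50 after it) were at hand for 34 of the 39 genes. Actg2 and Myh11, both called higher, had none, nor had Actb, Tagln and Myocd. Of all 32817 such windows, 1.63% held a CArG box and 9.99% a box or a CArG-like site. Among the 34 genes 8 held a box: Acta1, Actc1, Actg1, Cnn2, Myl6, Myl9, Vcl and Srf, and 11 held a box or a CArG-like site, the others being Acta2, Tpm3 and Flnc. The box was found in 4 of the 15 genes called higher and in 4 of the 19 others. Of the others with a box, Vcl and Srf were tested and not called and Actc1 and Myl9 were not tested. With CArG-like sites counted as well, the numbers were 6 of the 15, Acta2 among them, and 5 of the 19. The CArG box itself was found in 3 of 12 muscle-type and 5 of 22 ubiquitous genes. Cnn2 and Vcl carry the same box letters, CCTTATAAGG, 56 bases before the start site in Cnn2 and 227 before it in Vcl. Srf holds 2 boxes, 82 and 62 bases before its own start, while Acta2 holds 2 CArG-like sites at 84 and 34 bases. A match to these letters is not evidence of binding, and elements outside the window were not searched.

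**Figure D2:**
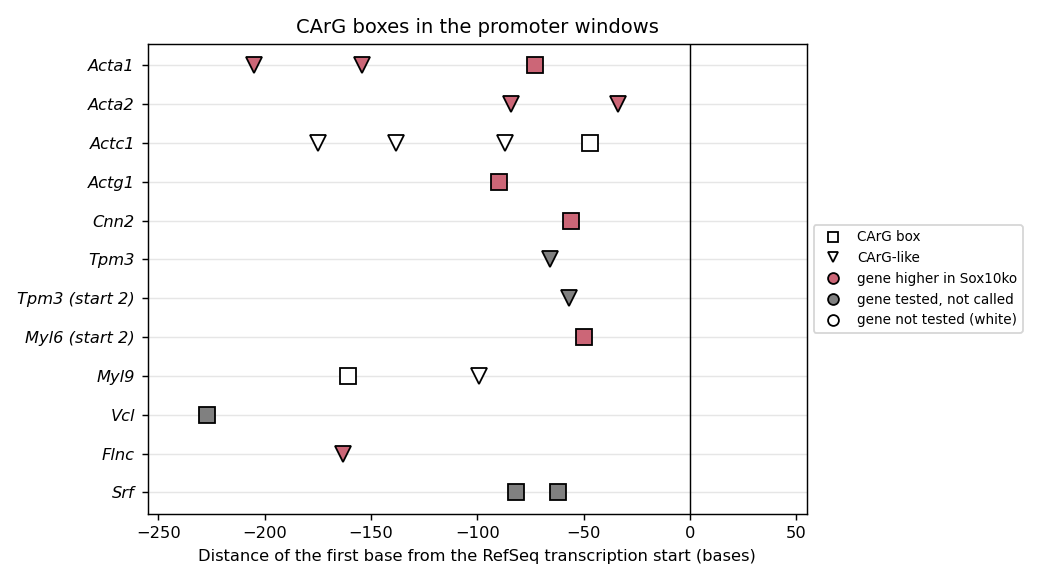
Distance of CArG boxes (squares) and CArG-like sites (triangles) from the RefSeq start site (horizontal axis, bases, negative before the start) in the 11 contractile genes that hold one, coloured by the edgeR call of the gene. Sites of genes called higher (red) and not called (grey) are mixed, from 227 bases before the start in Vcl to 34 bases before it in Acta2.

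Acta2, which encodes smooth muscle alpha-actin, the actin of vascular smooth muscle and of myofibroblasts, showed the widest difference of the 35 tested genes. Its level was 0.0542, 0.231 and 0.147 CPM in the control libraries and 107, 644 and 321 CPM in the Sox10ko libraries. Control cultures held 17 Acta2 reads in all, near the limit of detection, and Sox10ko cultures held 43889. The log2 fold change was 11.23 ± 0.95 (SE, edgeR adjusted p = 0.000298), a ratio of means of 2486, which was 1489 without Sox10ko replicate 2. The groups were far apart, but the 3 Sox10ko cultures also differed among themselves by 6.0 times.

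Actg2, the smooth muscle gamma-actin of the gut and other viscera, moved the same way at a much lower level. It was at 0.0542, 0.0512 and 0.0488 CPM in control (2 reads in each library) and at 0.959, 7.84 and 3.74 CPM in Sox10ko, with a log2 fold change of 6.26 ± 0.91 (edgeR adjusted p = 0.00243). The ratio of means was 81.3, and 45.7 without Sox10ko replicate 2. For every 100 Acta2 reads the Sox10ko libraries held 0.893, 1.22 and 1.17 Actg2 reads, a ratio that varied far less than either gene. None of the 50-base windows of the Actg2 transcript occurred in another gene's transcript, and 0.352% of the Acta2 windows did.

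The actins of striated muscle were detected with few reads. Acta1, skeletal muscle alpha-actin, was at 0.244, 0.0256 and 0.147 CPM in control and at 0.419, 1.55 and 0.673 CPM in Sox10ko, 16 reads against 107, with a log2 fold change of 2.66 ± 0.73 (edgeR adjusted p = 0.0298). That call was lost without control replicate 2 (0.0735), control replicate 3 (0.106) or Sox10ko replicate 2 (0.0787), and with the replicate number as a block (0.0940), and the ratio of means of 6.35 fell to 3.94 without Sox10ko replicate 2 and was 10.2 without control replicate 1. Actc1, cardiac alpha-actin, had no read in control and 1, 4 and 16 reads in Sox10ko, too few to test. Against an assumed 3 reads over the control group the ratio was 7.05, or 2.56 without Sox10ko replicate 3 and 4.58 without control replicate 3. These ratios ignore the counting error of the Sox10ko reads and so are not lower bounds.

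**Figure D3:**
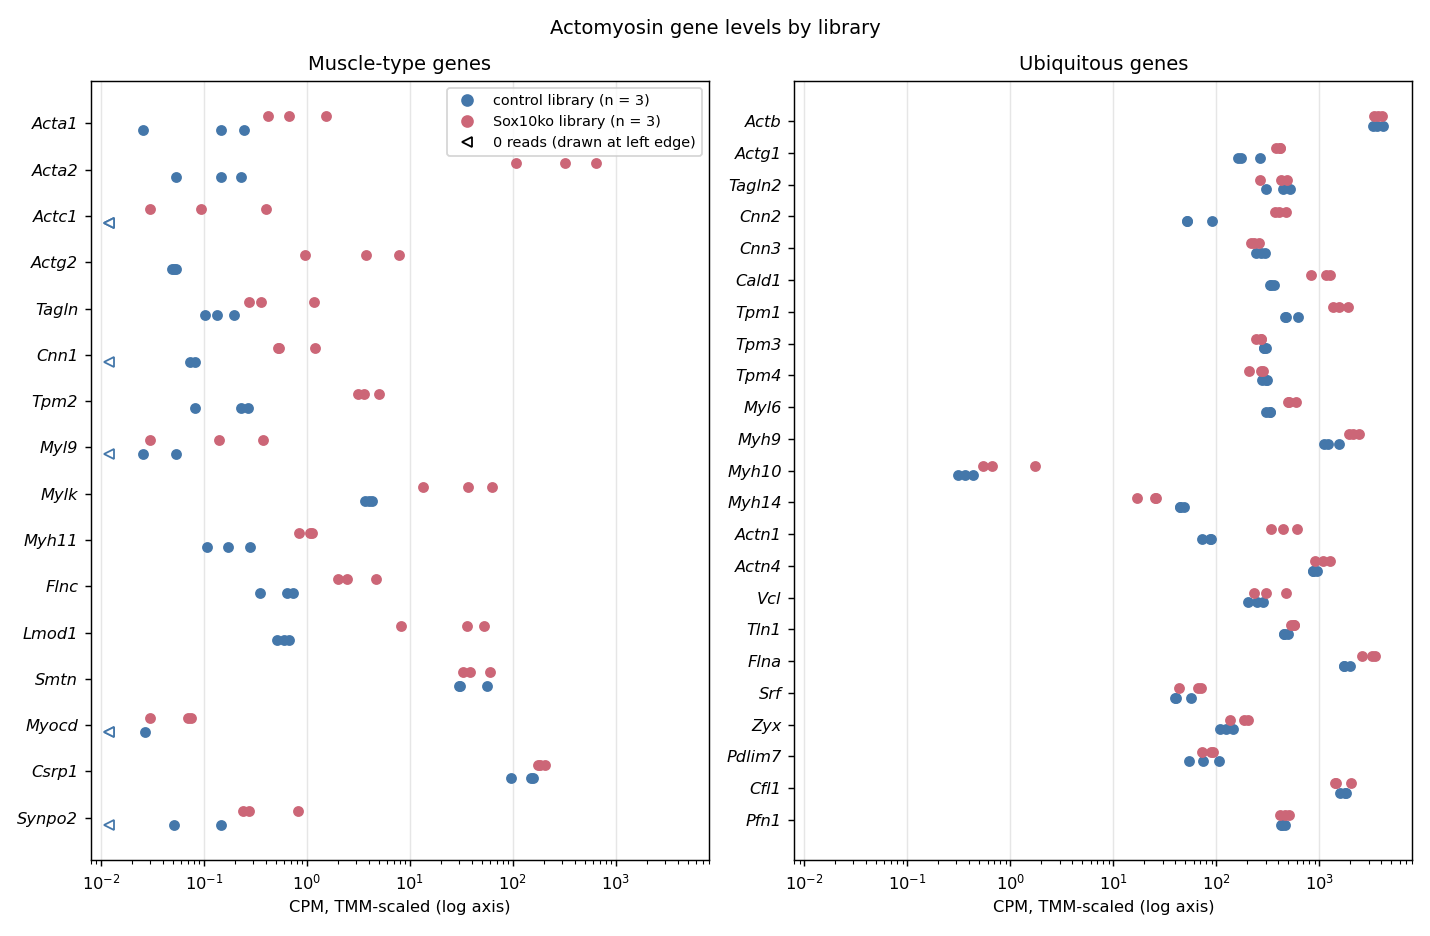
CPM of each of the 39 contractile genes (logarithmic horizontal axis) in the 3 control (blue) and 3 Sox10ko (red) libraries, 1 point per library, muscle-type genes left and ubiquitous genes right, with libraries at 0 reads drawn as open triangles at the left edge. Acta2 moves from at most 0.231 CPM to between 107 and 644 CPM, whereas Actb stays between 3337 and 4116 CPM in all 6 libraries.

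The cytoplasmic actins carried nearly all actin RNA in control. Actb, beta-actin, was at 4116, 3337 and 3596 CPM in control and at 3423, 4008 and 3706 CPM in Sox10ko, with overlapping groups and a log2 fold change of 0.01 ± 0.12 (edgeR adjusted p = 0.954). Actg1, gamma-cytoplasmic actin, was at 265, 162 and 173 CPM in control and at 380, 412 and 417 CPM in Sox10ko, without overlap. Its log2 fold change was 1.01 ± 0.19 (edgeR adjusted p = 0.00716), a 2.02-fold rise. The Actg1 value is less certain than the others because 56.7% of the 50-base windows of its transcript also occur in other genes' transcripts, mostly processed pseudogenes such as Gm12715, against 14.2% for Actb.

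To compare genes within a family, CPM was divided by the kilobases of annotated exon. On that scale the muscle-type actins made up 0.0134%, 0.0118% and 0.0137% of all actin RNA in the control libraries and 3.39%, 15.3% and 8.83% in the Sox10ko libraries. The means were 0.0130 ± 0.00101% and 9.19 ± 5.99% (SD, n = 3 each), 9.17 percentage points apart, and the groups did not overlap (exact permutation test, two-sided, p = 0.1, the smallest p that 3 against 3 allows, and 0.1 after adjustment over the 3 shares computed here). Acta2 alone supplied 9.0 ± 5.86% of actin RNA in Sox10ko. The difference was 6.10 points without Sox10ko replicate 2. The mean Actb share went from 94.9% to 81.8% and that of Actg1 from 5.13% to 8.99%, while total actin RNA, 1450 ± 169 CPM per kb in control and 1704 ± 240 CPM per kb in Sox10ko, overlapped between the groups.

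Of the 4 tropomyosin genes, Tpm1 and Tpm2 were higher and the others were not called. Tpm1, which makes both muscle and non-muscle forms by splicing, was at 626, 470 and 465 CPM in control and at 1550, 1895 and 1361 CPM in Sox10ko, a 3.08-fold rise (log2 fold change 1.62 ± 0.17, edgeR adjusted p = 0.000728). Tpm2, the beta-tropomyosin of muscle, was at 0.0813, 0.231 and 0.269 CPM in control and at 3.63, 3.12 and 5.06 CPM in Sox10ko, 23 reads against 457 (log2 fold change 4.31 ± 0.44, edgeR adjusted p = 0.000598). Neither group of values overlapped the other for these genes. Tpm3 and Tpm4, the widely expressed forms, were not called, with log2 fold changes of -0.16 ± 0.09 (edgeR adjusted p = 0.199) and -0.23 ± 0.13 (edgeR adjusted p = 0.229).

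Which tropomyosin led in control depended on the length used. Per kb of all annotated exons it was Tpm4 (135 CPM per kb, Tpm1 80.2), but per kb of the longest transcript it was Tpm1 (180 CPM per kb, Tpm4 139), as it was with no length correction. In Sox10ko Tpm1 led on all of these scales. Per kb of all exons, Tpm1 made up 30.4 ± 3.00% of tropomyosin RNA in control and 60.7 ± 4.6% in Sox10ko (SD, n = 3 each), Tpm4 51.2% and 28.3%, and Tpm3 18.4% and 10.7%. The Tpm2 share went from 0.0260 ± 0.0142% to 0.341 ± 0.115%, a difference of 0.315 points (exact permutation test, two-sided, p = 0.1) that shrank to 0.173 points without the length correction. The family total was 263 ± 21.0 CPM per kb in control and 406 ± 51.2 CPM per kb in Sox10ko. Gene counts do not separate the splice forms of Tpm1, so its muscle and non-muscle products are summed.

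**Figure D4:**
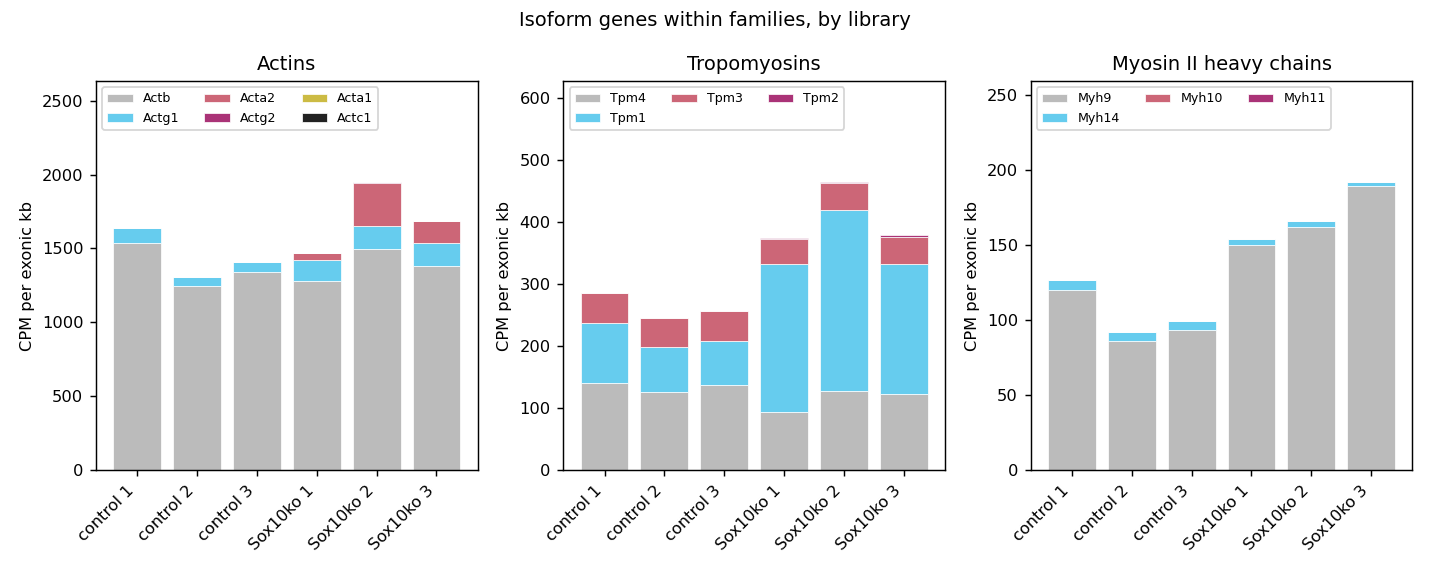
CPM per exonic kb (vertical axis) of the actin, tropomyosin and myosin II heavy chain genes, stacked in 1 bar per library, with colours for genes. Acta2 appears as a visible band only in the Sox10ko bars, where muscle-type actins are 3.39% to 15.3% of the stack, and the Tpm1 band goes from a mean share of 30.4% to 60.7%.

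Calponins, transgelins and caldesmon bind along the actin filament and temper myosin activity. Cnn2, the calponin of many non-muscle cells, was at 89.9, 52.1 and 51.8 CPM in control and at 368, 469 and 409 CPM in Sox10ko, a 6.43-fold rise (log2 fold change 2.69 ± 0.24, edgeR adjusted p = 0.000382). Cald1, caldesmon, was at 361, 342 and 329 CPM in control and at 835, 1256 and 1163 CPM in Sox10ko, a 3.15-fold rise (log2 fold change 1.66 ± 0.16, edgeR adjusted p = 0.000523). Both were abundant in control already, and neither overlapped between groups. Cnn1, the smooth muscle calponin, was counted 6 times in control and 90 times in Sox10ko (0.0813, 0 and 0.0732 CPM against 0.539, 1.20 and 0.523 CPM; log2 fold change 3.80 ± 0.73, edgeR adjusted p = 0.00760). Cnn3 was not called (-0.18 on the log2 scale, edgeR adjusted p = 0.269).

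Lmod1, a leiomodin that nucleates actin filaments in smooth muscle, was at 0.597, 0.666 and 0.513 CPM in control and at 8.18, 52.6 and 35.8 CPM in Sox10ko. It was 54.4-fold higher (log2 fold change 5.76 ± 0.72, edgeR adjusted p = 0.00132), and unlike Acta2 it was measurable in every control library. Tagln, transgelin or SM22, a widely used smooth muscle marker, was at 0.136, 0.102 and 0.195 CPM in control and at 0.360, 1.17 and 0.274 CPM in Sox10ko, 17 reads against 73. It missed the threshold (log2 fold change 2.05 ± 0.66, edgeR adjusted p = 0.0511) and passed it in 5 of the 11 other fits that held it, whose adjusted p ran from 0.0311 to 0.146, and its ratio of means went from 4.17 to 2.19 without Sox10ko replicate 2. Of its exonic bases 67.9% lie opposite exons of Pcsk7 and Gm48529, and Pcsk7 was at 27.3 to 32.0 CPM. The library kit marks the strand, but the strand setting used for counting is not given in the sources used here, so reads of overlapping genes may have been assigned to the other gene or left uncounted. Tagln2 (-0.09 ± 0.27, edgeR adjusted p = 0.819) and Smtn, smoothelin (0.18 ± 0.31, edgeR adjusted p = 0.698), overlapped between groups and were not called.

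Among the myosin genes, the heavy chains did not move together. Myh9, the heavy chain of non-muscle myosin IIA, was at 1554, 1111 and 1207 CPM in control and at 1942, 2095 and 2448 CPM in Sox10ko, a 1.68-fold rise (log2 fold change 0.74 ± 0.16, edgeR adjusted p = 0.0114, and 0.0614 without control replicate 3). Myh14, the heavy chain of non-muscle myosin IIC, was at 48.5, 44.6 and 44.3 CPM in control and at 26.0, 25.2 and 17.0 CPM in Sox10ko, 2.02-fold lower (log2 fold change -1.01 ± 0.17, edgeR adjusted p = 0.00458). The groups did not overlap for either gene. Myh11, the smooth muscle heavy chain, was at 0.108, 0.282 and 0.171 CPM in control and at 1.08, 0.845 and 1.12 CPM in Sox10ko (log2 fold change 2.41 ± 0.39, edgeR adjusted p = 0.00380), so a call was made but the level stayed near 1 CPM. Myh10, the heavy chain of non-muscle myosin IIB, was below 2 CPM in every library and not called (log2 fold change 1.41 ± 0.50, edgeR adjusted p = 0.0681), with a ratio of means of 2.66 that was 1.64 without Sox10ko replicate 2.

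Myh9 thus made up most myosin II heavy chain RNA in both groups. Per kb of exon its share was 93.9 ± 0.723% in control and 98.0 ± 0.606% in Sox10ko (SD, n = 3 each), a difference of 4.06 points (exact permutation test, two-sided, p = 0.1), while that of Myh14 was 6.01% and 1.88%. The size of the difference depends on the length used, being 2.69 points with the longest transcript and 2.36 points with no length correction.

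Mylk, the kinase that switches smooth muscle myosin on, was at 3.63, 4.33 and 3.98 CPM in control and at 13.3, 36.9 and 62.9 CPM in Sox10ko. It was 9.47-fold higher (log2 fold change 3.24 ± 0.52, edgeR adjusted p = 0.00373), and here Sox10ko replicate 3, not replicate 2, was the highest, with a ratio of 6.31 without it. Myl6, the essential light chain of smooth muscle and non-muscle myosin, was at 331, 306 and 331 CPM in control and at 507, 590 and 498 CPM in Sox10ko, a 1.65-fold rise (log2 fold change 0.72 ± 0.10, edgeR adjusted p = 0.00245). Myl9, the regulatory light chain of smooth muscle myosin, was near absent in both groups. It had 2, 1 and 0 reads in the control libraries and 1, 6 and 15 in the Sox10ko libraries, which overlapped and were too few to test. Over the groups, 3 reads against 22, the ratio was 7.38 with an exact 95% counting interval of 2.22 to 38.5. Without Sox10ko replicate 3 the ratio was 3.59, and its interval of 0.819 to 21.5 included 1. The ratio was 15.2 without control replicate 1 and 4.80 without control replicate 3.

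Cross-linkers tie filaments into bundles and nets, and adhesion proteins couple them to integrins. Actn1, alpha-actinin 1, was at 86.4, 89.4 and 71.9 CPM in control and at 336, 609 and 439 CPM in Sox10ko, a 5.59-fold rise (log2 fold change 2.48 ± 0.23, edgeR adjusted p = 0.000385). Flna, filamin A, was at 1988, 1742 and 1743 CPM in control and at 2565, 3479 and 3233 CPM in Sox10ko, a 1.70-fold rise (log2 fold change 0.76 ± 0.14, edgeR adjusted p = 0.00646). The muscle filamin gene Flnc rose 5.32-fold from 0.352, 0.640 and 0.732 CPM to 2.46, 4.69 and 2.02 CPM (log2 fold change 2.40 ± 0.44, edgeR adjusted p = 0.00611). In all 3 genes the lowest Sox10ko library lay above the highest control library.

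The adhesion genes and the remaining cross-linkers were not called. Vcl, vinculin, was at 247, 286 and 204 CPM in control and at 303, 477 and 234 CPM in Sox10ko (log2 fold change 0.46 ± 0.26, edgeR adjusted p = 0.219), and 25.5% of its exonic bases lie opposite exons of Ap3m1. Tln1, talin, was at 492, 455 and 449 CPM in control and at 532, 573 and 565 CPM in Sox10ko, a small difference without overlap that missed the threshold (log2 fold change 0.26 ± 0.09, edgeR adjusted p = 0.0667). Zyx, zyxin (0.48 ± 0.18, edgeR adjusted p = 0.0797), Csrp1, a LIM protein of smooth muscle (0.49 ± 0.19, edgeR adjusted p = 0.0903), Actn4, alpha-actinin 4 (0.28 ± 0.14, edgeR adjusted p = 0.157), and Pdlim7 (0.11 ± 0.23, edgeR adjusted p = 0.749) were likewise not called. Csrp1 did not overlap between the groups, and the other 3 did. Synpo2, an actin-bundling protein of muscle, was read 8 times in control and 54 times in Sox10ko, too few to test.

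Of the transcription factors behind the CArG box, Srf was not called and Myocd had too few reads to test. Srf was at 56.2, 40.3 and 39.4 CPM in control and at 42.9, 66.4 and 71.0 CPM in Sox10ko, with overlapping groups (log2 fold change 0.41 ± 0.22, edgeR adjusted p = 0.201). Myocd, myocardin, had 1 read in all control libraries and 7 in all Sox10ko libraries, a ratio of 7.05 with an exact 95% counting interval of 0.905 to 318. Its interval included 1, so these reads leave the size and direction of a Myocd difference undetermined. Without control replicate 1, which held the only control read, the ratio was 1.61 against an assumed 3 control reads. That value ignores the counting error of the 7 Sox10ko reads and so is not a lower bound. The ratio was 4.69 (0.603 to 212) without control replicate 2 and 4.58 (0.588 to 206) without control replicate 3. Cfl1, cofilin, which severs filaments, and Pfn1, profilin, which feeds monomers to growing ends, did not separate the groups (log2 fold changes -0.07 ± 0.16 and 0.07 ± 0.11, edgeR adjusted p = 0.757 and 0.677).

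Muscle-type genes had a larger median spread than ubiquitous ones among the control cultures as well as among the Sox10ko cultures. The plot of the Sox10ko replicates shows the spread of the genes called higher. The SD of log2 CPM over the 3 cultures of a group had a median of 0.507 in control and 0.765 in Sox10ko over the 12 tested muscle-type genes, 0.153 and 0.240 over the 23 ubiquitous genes, and 0.162 and 0.230 over all tested genes. Of these 12 muscle-type genes, 7 were above the low-count limit in at most 1 control library, where single reads weigh on the SD. Acta1, Tagln and Cnn1 had few reads in Sox10ko as well, 11 to 66 per library. The Sox10ko SD was the larger in 6 of 12 muscle-type and 15 of 23 ubiquitous genes, near the 64.1% seen over all genes. The highest Sox10ko culture exceeded the lowest by 6.0 times for Acta2, 6.43 for Lmod1 and 4.73 for Mylk, but by 1.86 for Smtn and 1.18 for Csrp1, which are muscle-type as well. Ubiquitous genes ran from 1.08 for Tln1 and 1.10 for Actg1 through 1.81 for Actn1 to 2.04 for Vcl and 3.17 for Myh10.

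The rank of the Sox10ko cultures was counted over the genes. Sox10ko replicate 2 was the highest of the 3 in 22 of the 35 tested genes, and replicate 1 was the lowest in 22, compared with 31.7% and 35.0% of all tested genes. For the 12 muscle-type genes the highest culture was replicate 2 in 8, replicate 3 in 4 and replicate 1 in none, while the lowest was replicate 1 in 5, replicate 3 in 4 and replicate 2 in 3. Residual Sox10 was 67.5 CPM in replicate 2, 82.3 CPM in replicate 1 and 116 CPM in replicate 3. Acta2 was at 644 CPM in replicate 2, 107 CPM in replicate 1 and 321 CPM in replicate 3. A relation between these levels was not tested.

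**Figure D5:**
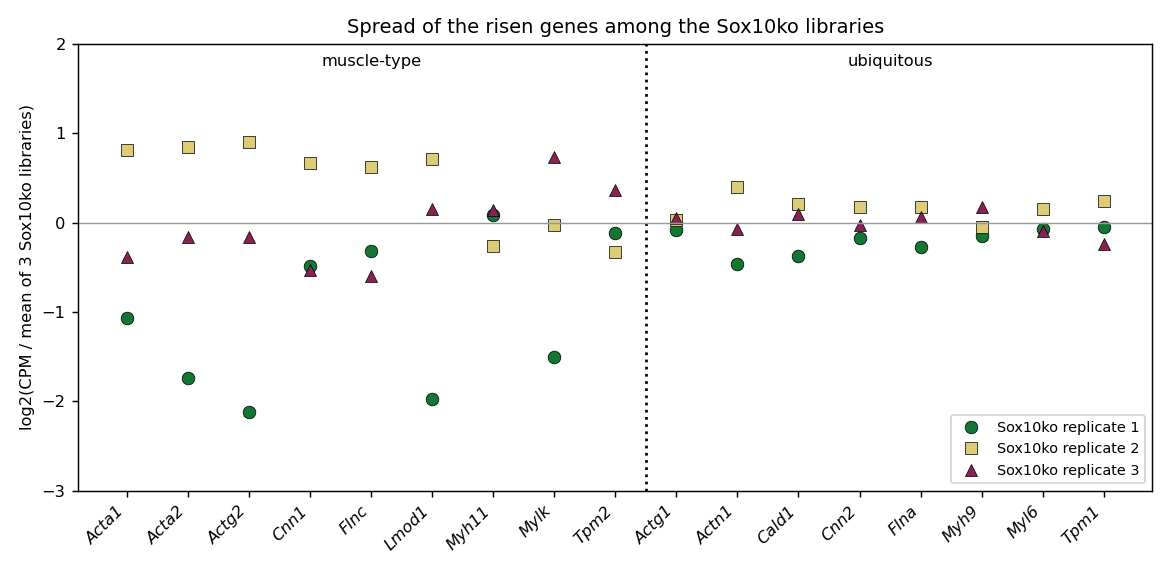
Log2 of each Sox10ko library's CPM over the mean of the 3 Sox10ko libraries (vertical axis) for the 17 contractile genes called higher, muscle-type left and ubiquitous right of the dotted line, with 1 symbol per replicate. The points of Acta2, Actg2, Lmod1 and Mylk, whose highest culture exceeded the lowest by 4.73 to 8.18 times, spread widely, and those of Actg1 and Cnn2 lie close to 0.

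Cofactors of SRF and other genes that SRF is known to control were read from a further list, in which a few genes showed large changes. Of 24 symbols listed, 20 occur in the tables (the rest are older names of listed genes) and 19 were tested. Of these 10 were higher and 2 lower (Elk3 and Fos), with a median log2 fold change of 0.57. The shares over all tested genes were 17.3% higher and 14.7% lower. Ankrd1, a stretch-responsive gene also controlled by YAP and TAZ, was at 0.976, 0.948 and 0.342 CPM in control and at 89.9, 215 and 92.4 CPM in Sox10ko (log2 fold change 7.46 ± 0.55, edgeR adjusted p = 0.000194). Ccn2, the matricellular protein CTGF, was at 2.93, 0.640 and 1.15 CPM in control and at 73.5, 194 and 90.8 CPM in Sox10ko (log2 fold change 6.26 ± 0.64, edgeR adjusted p = 0.000620), a 75.9-fold rise that was 134-fold without control replicate 1. Both genes were highest in Sox10ko replicate 2, like Acta2. Of the 19 tested genes of the list, 10 were highest in replicate 2, 6 in replicate 3 and 3 in replicate 1. Thbs1, thrombospondin 1, rose 20.3-fold (edgeR adjusted p = 0.00214), or 37.9-fold without control replicate 1, and Tgfb1i1, the adhesion protein Hic-5, rose 2.91-fold (edgeR adjusted p = 0.00227). The genes of the MRTF cofactors, Mrtfa (0.29 ± 0.16, edgeR adjusted p = 0.209) and Mrtfb (0.24 ± 0.12, edgeR adjusted p = 0.182), were not called. Neither lower call was steady: both were lost without control replicate 3 or Sox10ko replicate 1, that of Elk3 also without control replicate 1 or Sox10ko replicate 2, and that of Fos also without control replicate 2 or Sox10ko replicate 3.

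Of 33 other regulators of actin 31 were tested, 13 were higher and 3 lower, with a median log2 fold change of 0.25. Over all tested genes 17.3% were called higher and 14.7% lower. Some of the higher calls, for example those of Gsn, Msn and Tmod3, were lost on leaving out certain single libraries. Pls3, the bundling protein plastin 3, was 2.75-fold higher (log2 fold change 1.46 ± 0.10, edgeR adjusted p = 0.000140), and Pdlim5 rose by 0.96 ± 0.10 on the log2 scale (edgeR adjusted p = 0.000751). Pxn, the focal adhesion scaffold paxillin, was lower (log2 fold change -1.03 ± 0.11, edgeR adjusted p = 0.000686). Tmod1, which caps the pointed end of filaments and is related to the leiomodins, was at 12.8, 28.9 and 25.1 CPM in control and at 1.44, 0.728 and 2.19 CPM in Sox10ko (log2 fold change -3.94 ± 0.47, edgeR adjusted p = 0.00110), so Tmod1 and Lmod1 moved in opposite directions. However, 32.6% of the exonic bases of Tmod1 lie opposite exons of Tstd2, so its counts may depend on the strand setting.

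Markers of other cells that express muscle-type contractile genes were read beside these values. For comparison with the counts below, 17.3% of all tested genes were called higher and 14.7% lower. Of 14 striated muscle markers 8 were tested and 4 were higher (Des, Ttn, Ryr1 and Tnnt3), with a summed level of 50.2 to 115 CPM in control and 58.5 to 161 CPM in Sox10ko, most of it Tnnt2, while Myog, Ckm and Pax7 had no control reads and Myog had at most 0.0300 CPM in Sox10ko. Of 8 pericyte and mural markers 5 were tested, Pdgfrb, Notch3 and Rgs5 were higher and Mcam lower, with sums of 996 to 1026 CPM and 954 to 1196 CPM, and Kcnj8 and Abcc9 had no control reads. The Rgs5 call was lost on leaving out any of the 6 libraries, that of Notch3 on leaving out any control library, that of Ryr1 without control replicate 2 or 3 and that of Tnnt3 without control replicate 1 or 3. Of 8 fibroblast markers 4 were tested and the collagen genes Col1a1 and Col1a2 were higher, with sums of 285 to 335 CPM in control and 657 to 1910 CPM in Sox10ko. Col1a1, at 481, 1684 and 1092 CPM in the Sox10ko libraries, had the order of Acta2 there. The other 3 tested fibroblast markers, Col1a2 among them, were highest in Sox10ko replicate 3. Dcn, Lum, Fap and Thy1 stayed below 0.3 CPM in all 6 libraries, and Col3a1 and Pdgfra were not called. Of 4 endothelial markers 2 were tested, Cdh5 was lower, a call lost without control replicate 3, and Pecam1 was not called, with sums of 2.02 to 2.20 CPM and 0.180 to 0.610 CPM. The part of other cell types in the rise of the muscle-type genes was not tested beyond these levels.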

How the data were processed

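Total RNA was sequenced from 6 Msc80 cultures, 3 control and 3 Sox10ko. The authors deposited raw read counts per Ensembl gene, 1 table for each library. HTSeq, DESeq2 and STAR 2.6.0c, with build mm10 (GRCm38), are listed in the submitters' processing notes; their roles, the annotation and the strand setting were not given in the sources used here. Of 54109 identifiers 54042 were matched to symbols and coordinates of GENCODE M21 (GRCm38).

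Genes were filtered with filterByExpr (a limit of 0.249 CPM, from a minimum of 10 reads), scaled by TMM and tested with edgeR 4.0.16 (glmQLFit and glmQLFTest, R 4.3.3), two-sided, with Benjamini-Hochberg adjustment over 15427 genes at 0.05. SEs were derived from the F statistic. Family shares used CPM per kb of union exons and exact permutation tests. Ratios of few reads have exact 95% intervals, which cover counting error only. Where control had no read, 3 control reads were assumed and no interval was computed. Promoters came from RefSeq (GRCm38.p6).

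In counts simulated on the 15427 genes for this comparison, 16% of genes changed 1.5-fold, 54% changed 2-fold, 90% changed 4-fold and 98% changed 8-fold were recovered, with 9 false calls. The changed genes were drawn only from genes above a mean level that Acta1, Tagln, Cnn1, Myh10 and Myh11 did not reach. The recovery given here therefore does not cover genes with so few reads, for which it was not tested.

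All 39 genes are accounted for, and from each other list reported the 4 tested genes (or fewer) of lowest adjusted p are named. A gene and a gene list are not reported here. Others named were chosen after their values were seen. The genes, lists and tests were chosen with earlier results of these data known. Alternatives were DESeq2 1.42.0, DESeq2 size factors, library size alone, no filter, a mean of at least 5 CPM, a replicate block, other length corrections and leaving out each library.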

Additional observations from a re-analysis of the deposited data

How the results depend on the processing

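Of 412 values of the contractile genes under the alternatives, 385 kept their direction and their side of the threshold, 12 passed it only under the alternative, 5 no longer passed it and 10 reversed. Of the 18 called genes 16 kept the call in every fit that held them, the exceptions being Acta1 and Myh9. With a mean of at least 5 CPM required, Acta1, Actg2, Cnn1, Tpm2, Myh11 and Flnc were not tested, which left 3 muscle-type genes higher. All reversals were of uncalled log2 fold changes. With no filter Actb was at -0.03. Over the fits that left out 1 library, Actb ran from -0.07 to 0.08, Tagln2 from -0.30 to 0.12, Smtn from -0.14 to 0.51, Pdlim7 from -0.11 to 0.36, Cfl1 from -0.27 to 0.01, Pfn1 from -0.01 to 0.14 and the fibroblast marker Pdgfra from -0.55 to 0.54. Genes passing only under an alternative were Tagln (5 fits), Tln1 (library size alone, the 5 CPM filter and DESeq2), Myh10 without Sox10ko replicate 3 (adjusted p = 0.0412), and Actn4, Srf and Zyx without Sox10ko replicate 1 (edgeR adjusted p = 0.0397, 0.0459 and 0.0183). Leaving out 1 library gave 2869 to 4681 changed genes against 4939, the lowest without control replicate 3, and 16 to 22 contractile genes. The Tpm2 share difference was 0.173 points with no length correction, and that of Myh9 was 2.36 points with none and 2.69 points with the longest transcript. The cause of these differences was not tested. Genes with few reads, such as Actc1, Myl9, Myocd and Synpo2, are limited by depth.

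With the replicate number as a block, 3537 genes and 17 contractile genes were called. Deviations of same-numbered samples correlated at -0.119, -0.0418 and 0.0355, so no shared effect was visible. With 3 libraries per group these values cannot settle whether same-numbered cultures were handled together. Among genes outside the 39, the block ended, for example, the calls of Ryr1 (edgeR adjusted p = 0.0526) and Rgs5 (0.0531) and 1 of the 2 lower calls in the SRF list.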

Other observations

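Genes of actin assembly outside the 39 showed further differences, and those named here were chosen after their values were seen. Lcp1, the bundling protein L-plastin of blood cells, was at 0.515, 0.410 and 0.122 CPM in control and at 31.2, 6.24 and 13.8 CPM in Sox10ko (log2 fold change 5.61 ± 0.76, edgeR adjusted p = 0.00182). The ratio of means was 48.9, and 28.8 without Sox10ko replicate 1, and in this gene Sox10ko replicate 1 was the highest and replicate 2 the lowest, the reverse of Acta2. Enah, an Ena/VASP protein that lengthens filaments, was 4.59-fold higher (edgeR adjusted p = 0.00153), and Palld, the bundling protein palladin, was 3.25-fold higher (edgeR adjusted p = 0.00347). The intermediate filament gene Des, desmin, was at 0.380, 0.333 and 0.440 CPM in control and at 9.08, 23.3 and 24.1 CPM in Sox10ko (log2 fold change 5.60 ± 0.45, edgeR adjusted p = 0.000251).

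Myf5, a factor of the skeletal muscle lineage, differed between the Sox10ko cultures more than any contractile gene described above. It had 2 reads in control and was at 4.67, 16.4 and 0.125 CPM in Sox10ko, so that replicate 3 was close to control while its Acta2 was at 321 CPM. Myf5 did not pass the low-count filter, which asks for enough reads in 3 libraries. Its read ratio was 434 with an exact 95% counting interval of 120 to 3588. The ratio was 128 without Sox10ko replicate 2, 659 without Sox10ko replicate 3 and 282 without control replicate 3. Without control replicate 2, which held both control reads, it was 193 against an assumed 3 control reads.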
